A study of Mus musculus with 20 samples.

Results

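Skeletal muscle contractile genes were followed as a set of 50 named genes in RNA of whole mouse skin. The genes were listed by symbol, with earlier results of these data known. The set covers the proteins of the contractile unit of striated muscle, its calcium handling and its energy supply. Of the 50 genes, 49 had a row among the 46744 rows of the deposited table and expression of Acta1 was not analysed here. Levels are FPKM, the fragments counted on a gene per kilobase of its length and scaled to the mapped total, and 46 genes reached a mean of 1 FPKM over the 6 groups. Myh7 and Myl3 lay below that mean, and Myom1 was listed at 0 in every group.

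The study compared skin of C57BL/6 mice, an inbred strain, in 20 samples of 6 groups. Controls were Sod2+/+, with 5 samples aged 50 days, 2 aged 100 days, 3 aged 300 days and 4 aged 700 days. The conditional knockout (cKO) was Sod2-/-, with 3 samples at each of the ages 100 and 300 days. Sod2 encodes the superoxide dismutase of mitochondria. The labels name neither the cells in which the gene was deleted nor the Cre driver, the body site of the skin, or the depth to which it was cut. Sample titles carry one prefix for the 50- and 700-day controls and another for the 100- and 300-day groups. No ratio was taken across the prefixes, and the labels do not say whether they are batches. The table gives 1 FPKM value per group, so no value below has a replicate error, and no difference was tested. Ratios are log2 of (FPKM + 1), a scale that understates differences of low genes, and a difference was counted from an absolute ratio of 1.

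Skeletal muscle fibres contract when myosin of the thick filament pulls on actin of the thin filament, and calcium released from the sarcoplasmic reticulum switches the thin filament on through troponin. Fast and slow fibres carry different forms of myosin, troponin, the calcium pump and calsequestrin. Mouse skin lies on a thin sheet of striated muscle, the panniculus carnosus, beneath the layer of dermal fat. In RNA of whole tissue, fewer muscle fibres and less RNA per fibre cannot be told apart. Of the 50 genes, 14 are known mainly from fast fibres, 10 mainly from slow fibres, and 26 were treated as shared by fibre types or not assigned. Of these 14, 8 and 24 passed the filter.

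The regions before the transcription start of 4 members are shown because their transcripts differed in opposite directions between cKO and control skin at 100 days. Tnnc2 and Myh4, a pair of fast fibre genes, were lower in cKO skin, while Tnnc1, the slow counterpart of Tnnc2, and Trim63, a ubiquitin ligase of muscle, were higher. Each sequence holds the 250 bases before the start given by RefSeq, read in the direction of the gene from mm10 (GRCm38). Capitals mark each E-box, CANNTG, the letters that MyoD and its relatives are known to bind. The windows are chr2:164779735-164779984 on the minus strand for Tnnc2, chr11:67237562-67237811 on the plus strand for Myh4, chr14:31208062-31208311 on the plus strand for Tnnc1, and chr4:134314870-134315119 on the plus strand for Trim63.
Tnnc2: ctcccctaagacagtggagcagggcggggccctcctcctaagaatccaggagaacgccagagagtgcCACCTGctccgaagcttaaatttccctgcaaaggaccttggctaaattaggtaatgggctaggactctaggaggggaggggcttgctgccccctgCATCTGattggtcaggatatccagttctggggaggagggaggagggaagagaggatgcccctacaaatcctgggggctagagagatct
Myh4: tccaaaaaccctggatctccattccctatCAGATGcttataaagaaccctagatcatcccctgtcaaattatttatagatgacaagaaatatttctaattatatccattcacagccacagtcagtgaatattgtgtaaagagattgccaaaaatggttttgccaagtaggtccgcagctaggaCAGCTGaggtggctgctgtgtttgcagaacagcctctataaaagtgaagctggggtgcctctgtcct
Tnnc1: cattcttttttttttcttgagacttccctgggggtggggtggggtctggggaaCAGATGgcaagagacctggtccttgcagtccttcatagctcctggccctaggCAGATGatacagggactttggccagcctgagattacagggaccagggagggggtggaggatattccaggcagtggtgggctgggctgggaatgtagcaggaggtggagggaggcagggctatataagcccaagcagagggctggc
Trim63: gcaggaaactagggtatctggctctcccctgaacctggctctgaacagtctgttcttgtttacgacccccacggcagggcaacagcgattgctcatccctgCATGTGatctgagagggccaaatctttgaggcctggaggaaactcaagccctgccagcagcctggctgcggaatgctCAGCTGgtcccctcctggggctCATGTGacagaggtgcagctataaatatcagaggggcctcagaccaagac

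E-boxes occurred 2 times in the Tnnc2, Myh4 and Tnnc1 windows and 3 times in that of Trim63, so genes that differed in opposite directions shared this feature. The window of Myh4 lies 217 bases from the nearest coding transcript start in GENCODE M21. Start windows were found in RefSeq for 38 of the 50 genes, with the window nearest a GENCODE start used where there were several, while for all genes the first window listed was used. Acta1 is among these 38, and so is Myl2, whose window lies 7762 bases from the nearest GENCODE start. Of these 38, 32 (84.2%) held an E-box on either strand, against 66.0% of 27025 genes with a window of the same length. The narrower sequence CAGCTG, which is part of the E-box set, was held by 18 members (47.4%) against 12.8% of all genes. CATTCC, read on both strands and known as the core of sites for TEAD factors, was held by 12 members (31.6%) against 12.6%. A MEF2 site was matched in 7 (18.4%) against 3.01%, and a CArG box, the site of serum response factor, in 6 (15.8%) against 1.40%. Among fast fibre genes 5 of 10 held CAGCTG, and among slow fibre genes 4 of 9, with the distant window of Myl2 among the 4. These are matches of letters and not measured binding.

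Muscle transcripts made up a sizeable part of the table in most groups. The 49 genes summed to 1.07% of all FPKM in control skin at 50 days and to 0.0742% at 700 days. That 700-day sum was 369 FPKM, of which Tpm1 and Atp2a2, also made outside skeletal muscle, were 143 and 43.0 FPKM. Mylpf, of fast fibres, was 45.5 FPKM of it. The 49 genes summed to 4.66% in control and 2.77% in cKO skin at 100 days. At 300 days, where Ttn was listed at 0 in control and at 1175 FPKM in cKO skin, they summed to 3.41% and 4.03%. These levels stand side by side across the title prefixes, whose groups also differed in other cells: basal keratinocyte genes summed to 5489 FPKM at 50 and 6009.8 FPKM at 700 days and to between 1517 and 2573 FPKM in the other 4 groups. The 700-day controls held the lowest value of 43 of the 48 genes with any value above 0. Among the 4 groups at 100 and 300 days, cKO skin at 100 days held the lowest value of 32 of the 48 and cKO skin at 300 days the highest of 25. Such ranks were counted for the members only, so no share over all genes stands beside them.

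Fast fibre genes summed to more FPKM than slow ones in every group. They made up 3.28% of all FPKM against 0.0315% for slow genes in control skin at 100 days, and 0.0182% against 0.0101% at 700 days. Of the slow sum of 187.6 FPKM in control skin at 100 days, Mybpc1 was 109.8 FPKM and Atp2a2 40.1 FPKM. At 700 days fast genes summed to 90.4 FPKM and slow genes to 50.2 FPKM. Of that slow sum 43.0 FPKM were Atp2a2, which is also made outside muscle. Of 10 heart muscle genes 6 lay under a mean of 1 FPKM, among them Myh6, Myl7 and Nppa, the cardiac myosin heavy chain, the atrial light chain and the atrial peptide, which did not exceed 0.380 FPKM in any group. The other 4 reached that mean. Tnnt2, the cardiac troponin T, ran from 4.44 to 16.1 FPKM. The row of Tnni3, the cardiac troponin I, ran from 1.65 to 8.40 FPKM. That row is shared with Dnaaf3, so its values are not those of Tnni3 alone. Pln, the pump inhibitor phospholamban, ran from 0.683 to 5.77 FPKM, and the light chain Myl4 from 1.32 to 3.69 FPKM. Pax7, the marker of muscle stem cells, did not exceed 0.195 FPKM.

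**Figure D1:**
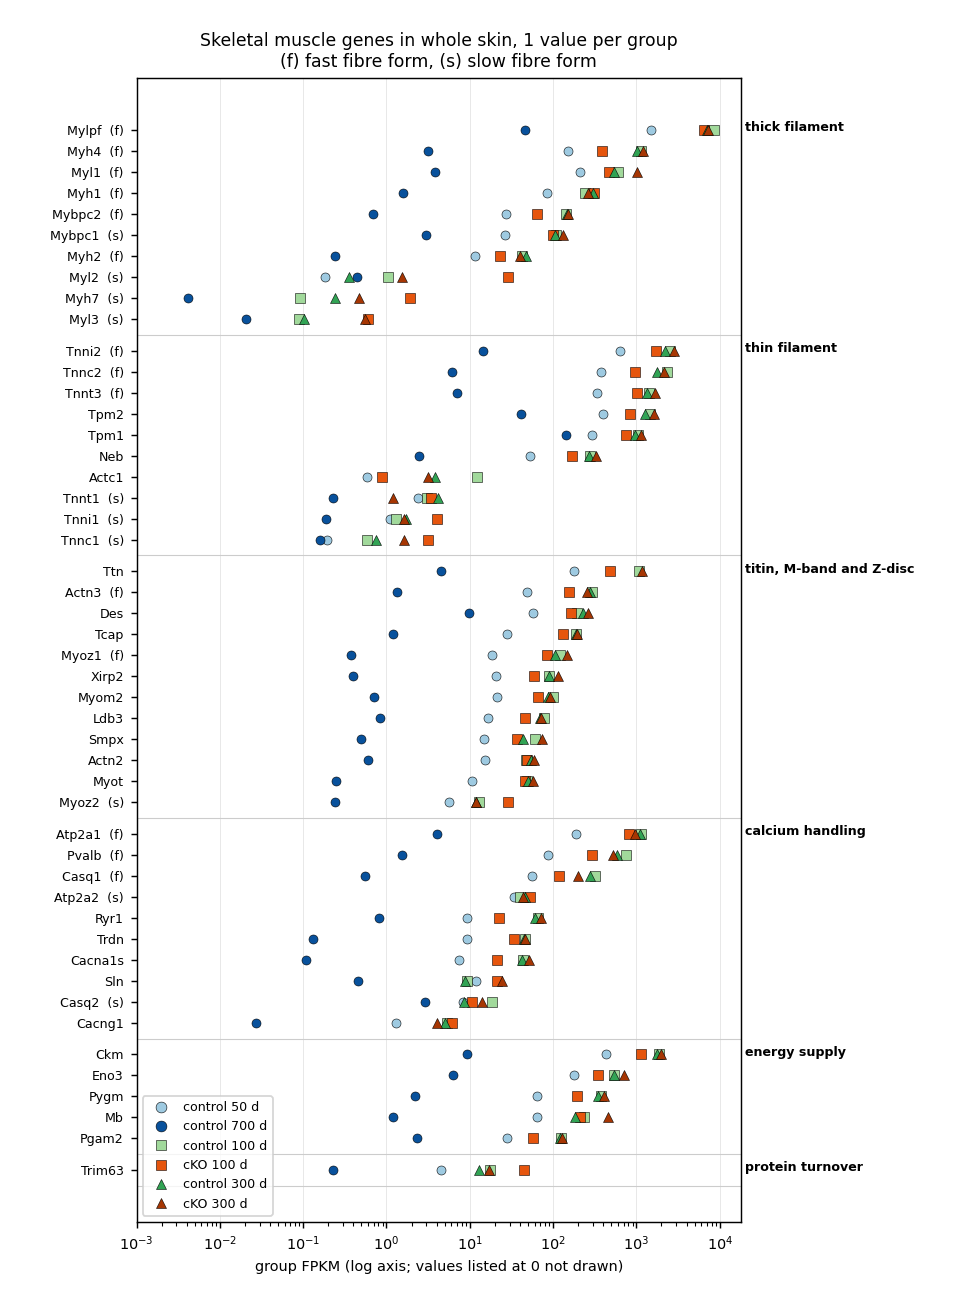
Group FPKM (log axis) of each member with any value above 0, by role, with 1 point per group and no error because the table has 1 value per group; (f) and (s) mark fast and slow fibre forms. The dark blue points of the 700-day controls lie far to the left for most members, but not for Atp2a2 or Myl2, and the orange squares of cKO skin at 100 days lie to the right for Myl2, Myh7, Tnnc1, Tnni1, Myoz2 and Trim63.

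Thick filament genes were led by Mylpf, the regulatory light chain of fast myosin. In control skin it stood at 1499 FPKM at 50 days and 45.5 FPKM at 700 days. At 100 days it was 8512 FPKM in control and 6491 FPKM in cKO skin, and at 300 days 6954 and 7258 FPKM. Mylpf was the most abundant member in 5 of the 6 groups, and Tpm1 took that place in the 700-day controls. Myh4, the heavy chain of the fastest fibres, stood at 153 FPKM at 50 days, 3.13 FPKM at 700 days, 1143 and 389 FPKM in control and cKO skin at 100 days, and 1017 and 1216 FPKM at 300 days. Among the 4 groups at 100 and 300 days, cKO skin at 100 days stood apart with the lowest Myh4. Myh1, the IIx heavy chain, did not share this: it was 241 FPKM in control and 311 FPKM in cKO skin at 100 days, and 298 and 261 FPKM at 300 days.

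The mix of heavy chains differed between groups accordingly. Of the summed FPKM of Myh1, Myh2, Myh4 and Myh7, Myh4 took 80.1% in control and 53.7% in cKO skin at 100 days, and 74.6% and 80.2% at 300 days. Myh1 took 16.9%, 42.9%, 21.9% and 17.2% in the same order. At 50 and 700 days, Myh4 took 61.3% and 62.9% and Myh1 34.0% and 32.1%, so the mix of fast heavy chains was alike while their level differed 48.8-fold for Myh4. Myh7, the slow heavy chain, took at most 0.264%, in cKO skin at 100 days. Of the distinct 75-base windows of the coding transcripts, 15.8% in Myh1, 16.3% in Myh2 and 9.68% in Myh4 also occur in another gene. A part of their reads could therefore be split between them, and Myh1 also overlaps the antisense gene Myhas. The 3 genes lie next to each other on chromosome 11 (Myh2 from 67171027 to 67197517, Myh1 from 67200052 to 67224575, Myh4 from 67238029 to 67260446).

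Other light chains and binding proteins filled in the picture. Myl1, the essential light chain of fast fibres, was 213 FPKM at 50 days, 3.84 at 700 days, 601 and 468 in control and cKO skin at 100 days, and 544 and 1028 at 300 days. Its value in cKO skin at 300 days was the highest of the 6. Mybpc2 and Mybpc1 are the fast and slow forms of myosin-binding protein C. Mybpc2 was 145 FPKM in control and 63.8 FPKM in cKO skin at 100 days, while Mybpc1 was 109.8 and 99.6 FPKM.

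Myl2, the regulatory light chain of slow and ventricular muscle, behaved unlike the rest. It was 0.183 FPKM at 50 days, 0.449 at 700 days, 1.05 in control and 28.7 in cKO skin at 100 days, and 0.357 and 1.54 at 300 days. The cKO group at 100 days stood 27.2-fold above its control, the largest fold of any member in that comparison. Myh7 was listed at 0 at 50 days and was 0.0042 FPKM at 700 days, 0.0919 in control and 1.91 in cKO skin at 100 days, and 0.244 and 0.468 at 300 days. Myl3, the slow essential light chain, did not exceed 0.597 FPKM. A lowest step of FPKM times length was estimated in each group and read as about 1 read of the deepest library. In such steps Myl2 stood at 13.6 in control and 359.5 in cKO skin at 100 days, and Myh7 at 11.2 and 225. The exons of Myl2 (chromosome 5, 122100951 to 122113472) overlap those of Ccdc63 on the opposite strand. Ccdc63 was 3.07 FPKM at 50 days, 5.18 at 700 days, 0.822 in control and 0.851 in cKO skin at 100 days, and 0.789 and 3.43 at 300 days. It was thus alike in both genotypes at 100 days, but higher in the same groups as Myl2 at 300 and at 700 days, and its part in those Myl2 values was not tested.

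Thin filament genes of fast fibres were abundant too, though each lay below Mylpf in every group. Troponin binds calcium through troponin C (Tnnc2 in fast, Tnnc1 in slow fibres), inhibits contraction through troponin I (Tnni2, Tnni1) and is tied to tropomyosin by troponin T (Tnnt3, Tnnt1). Tnni2 was 633 FPKM at 50 days, 14.3 at 700 days, 2534 and 1717 in control and cKO skin at 100 days, and 2229 and 2792 at 300 days. Tnnc2 was 374, 6.18, 2308, 962, 1781 and 2129 FPKM in the same order of groups. Tnnt3 was 336, 7.09, 1419, 1003, 1338 and 1673 FPKM. All 3 were lowest at 700 days, then at 50 days, then in cKO skin at 100 days, but their proportions differed. Tnni2 stood at 1.098 times the FPKM of Tnnc2 in control and 1.79 times in cKO skin at 100 days, and at 1.251 and 1.312 times at 300 days. Exons of Tnnc2 overlap those of Ube2c on the opposite strand, which lay between 4.61 and 16.7 FPKM.

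Slow troponins were low throughout. Tnnc1 was 0.191 FPKM at 50 days, 0.16 at 700 days, 0.587 and 3.13 in control and cKO skin at 100 days, and 0.759 and 1.64 at 300 days. Tnni1 was 1.09, 0.189, 1.31, 4.02, 1.70 and 1.61 FPKM in the same order. Both were highest in cKO skin at 100 days. Tnnt1 differed from them: it was 3.09 and 3.39 FPKM in control and cKO skin at 100 days, and 4.18 and 1.19 FPKM at 300 days.

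Tropomyosin, nebulin and cardiac actin made up the remaining thin filament genes. Tpm1, a tropomyosin also made outside striated muscle, was 290.2 FPKM at 50 days and 143 at 700 days, and between 739.8 and 1124 in the other 4 groups. Tpm2 was 395 and 40.7 FPKM at 50 and 700 days, and Neb, the ruler of the thin filament, 52.7 and 2.47 FPKM. Actc1, the cardiac actin, was highest in control skin at 100 days at 12.4 FPKM and stood at 0.891 in cKO skin of that age. It was 3.83 and 3.12 FPKM at 300 days, 0.587 at 50 days and listed at 0 at 700 days.

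Of 12 genes of titin, the M-band and the Z-disc that passed the filter, Ttn was lower and Myoz2 higher in cKO skin at 100 days, and the other 10 were not counted. Over all genes 4.29% were lower and 2.17% higher in that comparison, so these counts are near the background. Actn3, the fast fibre actinin of the Z-disc, was 48.6 FPKM at 50 days, 1.34 at 700 days, 289.9 and 155 in control and cKO skin at 100 days, and 274 and 253 at 300 days. Actn2, the actinin of all striated fibres, was 47.6 and 49.0 FPKM in control and cKO skin at 100 days. Ttn, the giant elastic protein titin, was 179 FPKM at 50 days, 4.51 at 700 days, 1067 and 483 at 100 days and 1175 in cKO skin at 300 days, but was listed at 0 in the 300-day controls. A 0 in such a table can be a failed estimate, and no fold is given against it. Myoz2, a Z-disc protein of slow fibres, went the other way to its fast relative Myoz1: it was 13.03 and 28.8 FPKM in control and cKO skin at 100 days, against 121 and 83.7 FPKM for Myoz1. Des, the intermediate filament desmin, which smooth muscle makes too, was 57.6 FPKM at 50 days and 9.86 at 700 days. Ldb3, Tcap, Myot, Xirp2, Smpx and Myom2, all of the Z-disc, the M-band or their links to the membrane, had log2 ratios between -3.96 and -3.23 at 700 against 50 days, and between -0.74 and -0.09 in cKO against control skin at 100 days.

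Calcium handling genes ranged from the largest fold of the set at 700 days to no counted difference. Casq1, the calcium store protein of fast fibres, was 55.4 FPKM at 50 days, 0.55 at 700 days, 321 and 119 in control and cKO skin at 100 days, and 280.1 and 196 at 300 days. Its fold at 50 over 700 days, 101, was the largest of the set. Atp2a1, the calcium pump of fast fibres, was 187 and 3.99 FPKM at 50 and 700 days, while Atp2a2, the pump of slow fibres, heart and many other cells, was 34.1 and 43.0 FPKM. Atp2a2 stayed between 34.1 and 52.3 FPKM in all 6 groups, as a fold the narrowest range among members above 0 in every group. Pvalb, the calcium buffer of fast fibres, was 752 FPKM in control and 294 FPKM in cKO skin at 100 days. Ryr1, the calcium release channel, was 65.5 and 22.6 FPKM, and its voltage sensor Cacna1s 43.8 and 21.2 FPKM. Sln, a small inhibitor of the calcium pump, was higher in cKO skin at both ages: 9.26 in control and 21.1 in cKO skin at 100 days, and 8.80 and 24.2 FPKM at 300 days. At 50 and 700 days Sln was 12.01 and 0.455 FPKM.

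Energy supply genes were lowest at 700 days, and 4 of 5 were lowest in cKO skin of 100 days among the groups at 100 and 300 days. Ckm, the creatine kinase of muscle, was 436 FPKM at 50 days, 9.17 at 700 days, 1869.5 and 1136 in control and cKO skin at 100 days, and 1746 and 1980.2 at 300 days. Mb, the oxygen store myoglobin, was 64.7, 1.20, 237, 212, 185 and 457 FPKM in the same order. Mb stood at 0.231 times the FPKM of Ckm in cKO skin at 300 days and at 0.106 times in control skin of that age. Eno3, Pygm and Pgam2, enzymes of glycogen and glucose breakdown, were 344, 191 and 57.9 FPKM in cKO skin at 100 days against 544, 375 and 124 FPKM in its control. Trim63, which tags muscle proteins for breakdown, was 4.56 FPKM at 50 days, 0.228 at 700 days, 17.4 and 44.4 in control and cKO skin at 100 days, and 12.99 and 16.8 at 300 days. Among the 4 groups at 100 and 300 days, it was thus highest where 7 of the 10 slow forms were highest, the exceptions being Casq2, Tnnt1 and Mybpc1.

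The first comparison, 700 against 50 days in control skin, compared old skin with young. Of the 46 members that passed the filter 41 were lower and none higher, where 3.25% of all 12237 genes were lower and 0.605% higher. The median log2 ratio was -3.41 over 45 members, Actc1 being listed at 0 at 700 days, and -0.03 over all genes. All 14 fast members were lower, with a median of -5.15, and their levels at 50 days were between 32.9-fold and 101-fold those at 700 days. Of 8 slow members 4 were lower (Mybpc1, Myoz2, Tnnt1 and Casq2), with a median of -1.03, and of 24 shared members 23. Without the added 1, the median fold of 700 over 50 days was 0.0207 for fast and 0.264 for slow members. The 5 members not counted were Actc1 and the slow forms Atp2a2, Myl2, Tnnc1 and Tnni1. Of these, Actc1, Myl2 and Tnnc1 stood at 0.587, 0.183 and 0.191 FPKM at 50 days. From such levels the ratio could not reach -1 even with 0 FPKM at 700 days. Tnni1 was 5.79-fold higher at 50 than at 700 days, but its ratio was -0.82. Tpm1 was close to the size counted at -1.01 and stood at -0.94 after scaling to a common median.

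Beside these values stand those of other cells. Smooth muscle genes did not move with them: none of 10 was lower or higher and their median was 0.05, with Myh11 at 11.3 FPKM at 50 and 13.9 at 700 days and Acta2 at 28.3 and 27.4 FPKM. Of 12 adipocyte genes 9 were lower, with a median of -1.46 and a summed level of 1091 FPKM at 50 and 301 FPKM at 700 days. Dermal fibroblast genes had a median of -0.87 with 3 of 10 lower, and basal keratinocyte genes one of 0.10 with 1 of 8 higher. The part of the fat and fibroblast genes in the muscle result was not tested. The Y-linked gene Ddx3y was 0.243 FPKM at 50 days and 21.5 FPKM at 700 days, and Xist 2580 and 3.69 FPKM, so age cannot be told apart from this sex-linked difference. In the 100- and 300-day groups, Ddx3y was at most 0.0556 FPKM in the controls and at least 21.4 FPKM in the cKO, so genotype runs together with it too.

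**Figure D2:**
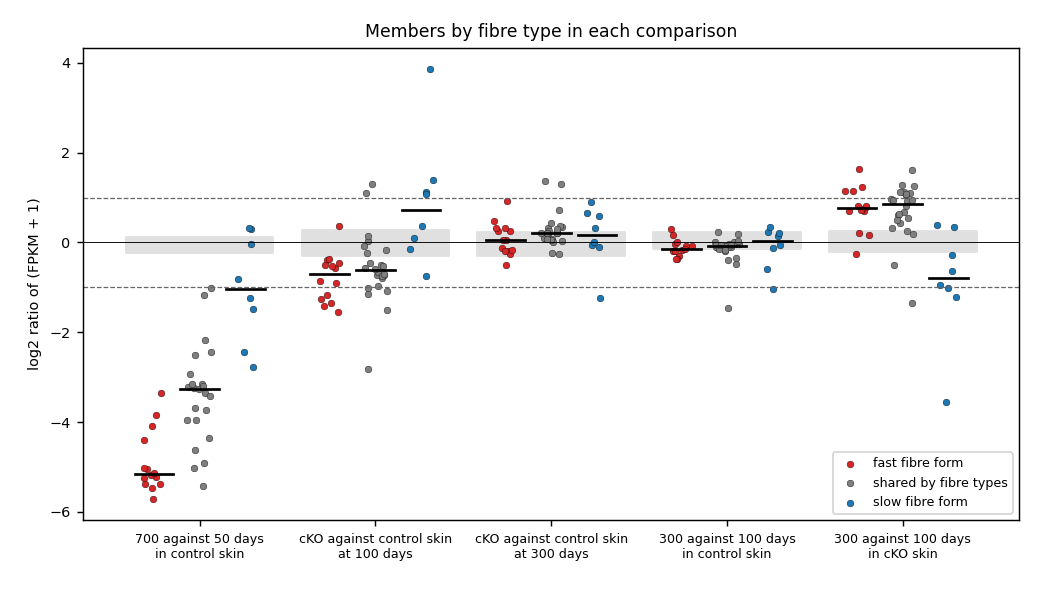
Log2 ratio of (FPKM + 1) of each member that passed the filter, in the 5 comparisons, by fibre type; points are genes, black bars the medians, the grey band holds the middle 50% of all 12237 genes and dashed lines mark the size counted. Fast and slow forms lie apart at 700 against 50 days (medians -5.15 and -1.03) and have medians of opposite sign in cKO against control skin at 100 days (-0.71 and 0.73).

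The second comparison, cKO against control skin at 100 days, took up loss of Sod2 in the younger of the ages studied. Several fast forms were lower and several slow forms higher. Of the 46 members 10 were lower, where 4.29% of all genes were lower, and 6 were higher, where 2.17% of all genes were higher. The median was -0.54 over the members and 0.02 over all genes. Lower were the fast forms Myh4, Casq1, Pvalb, Tnnc2 and Mybpc2, and Actc1, Ryr1, Ttn, Pgam2 and Cacna1s. Higher were the slow forms Myl2, Tnnc1, Tnni1 and Myoz2, together with Trim63 and Sln. The 14 fast forms had a median of -0.71, with 13 below 0 and Myh1 above it at 0.36. The 8 slow forms had a median of 0.73, with 6 above 0. Cacna1s was close to the size counted at -1.01, and stood at -0.98 after scaling to a common median. With equal totals, Myoz2 was 0.96 and Sln 0.98.

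Adipocyte genes were lower in the same comparison in 12 of 12 cases (median -1.81, summed level 7698 FPKM in control and 2433 FPKM in cKO skin), and 4 of 10 dermal fibroblast genes were lower (median -0.76). Smooth muscle genes had a median of -0.12, with none of 10 counted. Basal keratinocyte genes had a median of 0.45 with none of 8 counted. Their part in the muscle result was not tested.

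In the 300-day groups most muscle genes of cKO skin were within the size counted of control. Of the 46 members 3 were higher, where 1.84% of all genes were higher, and 1 lower, where 5.12% of all genes were lower. Sln and Mb were higher at log2 ratios of 1.36 and 1.30, and Ttn is counted because it is listed at 0 in the control. Tnnt1 was lower at -1.24. The median was 0.21 over 45 members, with 0.05 for fast and 0.16 for slow forms. Myl1 stood at 0.92 and Myl2 at 0.91, just under the size counted, and the next was Smpx, a small protein at the links of muscle to its membrane, at 0.73. Adipocyte genes were lower in 9 of 12 cases here as well (median -1.25) while the median of the members lay above 0. Schwann cell genes had a median of -0.76.

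Age was then compared within each genotype. In control skin, 300 against 100 days, 3 of 46 members were lower, where 1.02% of all genes were lower, and none was higher, where 3.38% of all genes were higher. These were Actc1 at -1.47, Casq2 at -1.03 and Ttn, which is listed at 0 at 300 days. The median was -0.09, and 14 of 14 fast forms lay between -0.38 and 0.30. In cKO skin 12 members were higher at 300 than at 100 days, where 2.4% of all genes were higher, and 4 lower, where 1.47% were lower. Higher were Myh4 (1.64), Ryr1 (1.61), Ttn, Cacna1s, Mybpc2, Tnnc2, Myl1, Actc1, Pgam2, Mb, Pygm and Eno3. Lower were Myl2 (-3.55), Trim63 (-1.35), Myoz2 (-1.21) and Tnnt1 (-1.004). In the same comparison of cKO skin 5 of 10 dermal fibroblast genes were higher, with a median of 0.80, beside 0.70 for the members and 0.02 for all genes, and their part in the muscle result was not tested. Adipocyte genes had a median of 0.14 with none of 12 counted. These comparisons share their control and cKO groups with those of genotype at 100 and 300 days, so their directions are tied.

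Pairs of slow and fast forms of the same protein put the fibre types on one scale within each group. Myl2 made up 0.0124% of the FPKM of Myl2 and Mylpf in control and 0.440% in cKO skin at 100 days, and 0.00513% and 0.0213% at 300 days. Tnnc1 made up 0.0254%, 0.324%, 0.0426% and 0.0772% of its pair with Tnnc2 in the same order, and Tnni1 0.0518%, 0.234%, 0.0763% and 0.0577% of its pair with Tnni2. Slow forms therefore stayed under 1% of these 3 pairs at 100 and 300 days, also where they were highest. Myoz2 made up 9.71% and 25.6% of its pair with Myoz1 in control and cKO skin at 100 days. Of 10 pairs 10 had a larger slow share in cKO than in control skin at 100 days. At 300 days the slow share was larger in 7 of 10, all but the calsarcins and troponins I and T.

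At 700 days the slow shares were larger than at 50 days in the 8 pairs with a slow form above 0 at both ages. Of these 8 slow forms 6 were themselves lower at 700 days, and 2, Atp2a2 and Myl2, were higher. In the other 2, Myl3 and Myh7 were listed at 0 at 50 days and stood at 0.0205 and 0.0042 FPKM at 700 days. Atp2a2 made up 91.5% of its pair with Atp2a1 at 700 days and 15.4% at 50 days, and Casq2 84.25% and 12.999% of its pair with Casq1. With Mybpc1, at 81.3% of its pair with Mybpc2 against 48.9%, these were the 3 pairs of 10 whose slow form was the larger at 700 days. Atp2a2 is also made outside muscle, so its share of the pair is not a share of fibres. Myl2 made up 0.976% and 0.0122%, and Tnni1 1.30% and 0.172%.

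**Figure D3:**
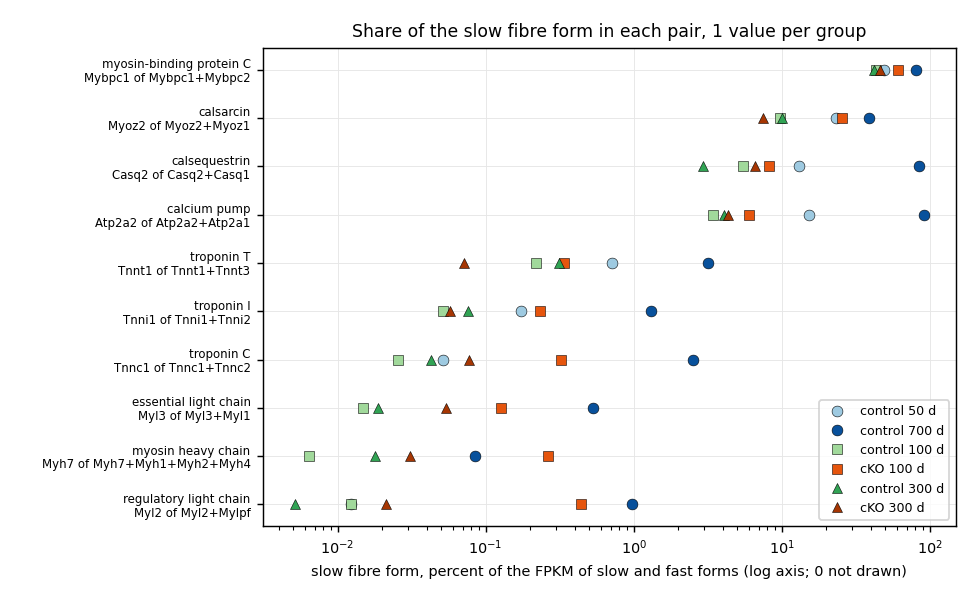
Slow fibre form as a percent of the summed FPKM of the slow and fast forms (log axis) in 10 pairs, with 1 point per group and no error. Shares of 0 have no point, which is the case at 50 days for the myosin heavy chain and essential light chain pairs. In the other 8 pairs control skin at 700 days lies to the right of control skin at 50 days, and in all 10 cKO skin at 100 days to the right of control skin at 100 days.

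A wider list of 58 muscle fibre genes outside the set was read in the same way, of which 55 passed the filter. At 700 against 50 days 41 were lower and none higher (median -1.69), against 3.25% and 0.605% of all genes. In cKO against control skin at 100 days 6 were lower and 1 higher (median -0.53), against 4.29% and 2.17% of all genes, so the single higher gene is within the background. It was Ankrd2, a stretch-responsive protein of slow fibres, at 16.4 FPKM in cKO and 2.99 in control skin. Jph2 and Stac3, which couple the cell membrane to calcium release, were lower at 9.74 against 25.5 and 12.4 against 32.0 FPKM. Phkg1, a subunit of phosphorylase kinase, was lower at 17.8 against 50.6 FPKM. In cKO against control skin at 300 days 3 were higher and none lower, against 1.84% and 5.12% of all genes. Csrp3, a Z-disc sensor of stretch, was higher at 84.3 against 22.4 FPKM. So were Myom3, an M-band protein, at 18.1 against 5.22 FPKM, and Musk, the kinase of the neuromuscular junction, at 5.40 against 1.54 FPKM. At 100 days Csrp3 stood at 58.8 FPKM in cKO against 32.5 FPKM in control skin. Fbxo32, another ubiquitin ligase of muscle breakdown, chosen after its values were seen as a companion of Trim63, stood at 15.8 FPKM against 13.5 FPKM, cKO against control, at 100 days.

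Of 13 muscle stem cell and myogenic genes 10 had a row and 3 passed the filter. Myf6, a myogenic factor kept on in adult fibres, was 2.20 FPKM at 50 days, 0.0472 at 700 days, 12.9 and 4.80 in control and cKO skin at 100 days, and 7.60 and 7.61 at 300 days. Myh8, the perinatal heavy chain, was 2.53, 0.0283, 15.98, 7.61, 15.1 and 17.0 FPKM in the same order. Myod1 and Myog, which switch on muscle genes, did not exceed 1.5 FPKM. Myh3, the embryonic heavy chain, was 0.557 FPKM in cKO skin at 100 days and at most 0.138 FPKM elsewhere.

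**Figure D4:**
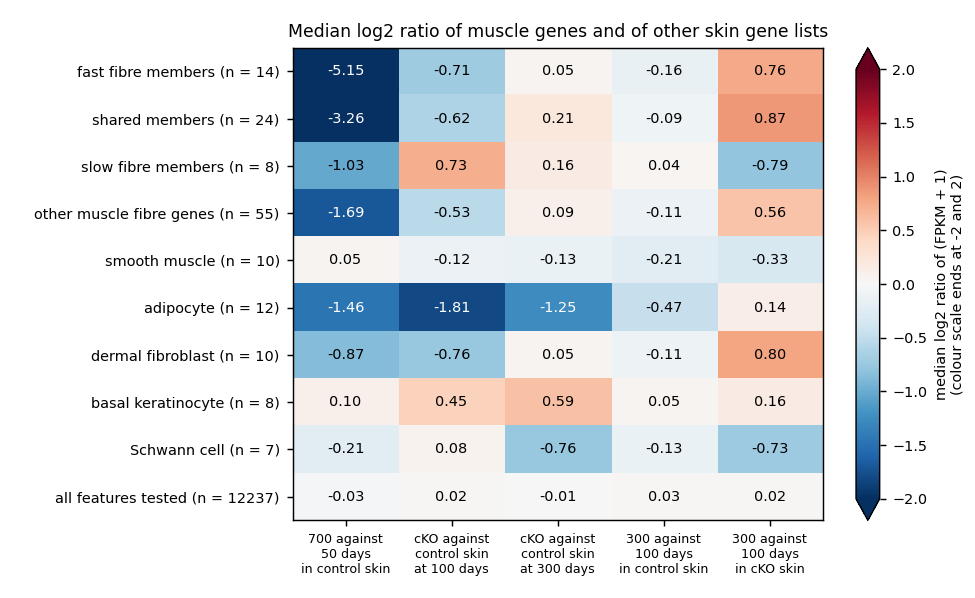
Median log2 ratio of (FPKM + 1) in each comparison for the members by fibre type and for other gene lists of skin, with the number of genes behind each median. Smooth muscle medians lie between -0.33 and 0.05 in the 5 comparisons, while adipocyte medians are below -1 in the columns of 700 against 50 days and of both cKO comparisons.

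The genes outside the set whose pattern lay nearest to the members' median were themselves known from muscle. Likeness was the Euclidean distance over 4 log2 ratios within the title prefixes, among genes whose mean reached 5 FPKM. The 10 nearest were Klhl41, Srl, Nrap, Ckmt2, Mylk2, Fabp3, Cmya5, Eef1a2, Cox6a2 and Adssl1, at distances of 0.19 to 0.74. Klhl41 was 13.4 FPKM at 50 days, 0.447 at 700 days, 71.9 and 49.5 in control and cKO skin at 100 days, and 62.5 and 70.1 at 300 days. Of these 10, 6 are in the wider muscle list. Among the members themselves Trdn, a protein of the calcium release complex, lay nearest to the median at 0.24, and Myl2 farthest at 5.76 after Ttn, whose 0 in the 300-day controls sets its distance.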

How the data were processed

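RNA of whole skin was sequenced from 20 samples in 6 groups, assigned from source names. Per the labels' protocols, 1 of 2 kits removed ribosomal RNA (which samples had which kit is not given) and libraries were directional. Per the submitters' processing notes, HISAT2, Cufflinks and Cuffdiff were used with mm10. Versions, the annotation, use of strand and how samples of a group were combined are not given in the sources used here. By the name of the table, the authors deposited FPKM, and its header holds 1 column per group, so no error, interval or test was possible.

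Members and lists were chosen with earlier results of these data known. A member's row was that with its symbol, and the row with the highest mean where there were several. Ratios were log2 of (FPKM + 1) over the 12237 of 20066 named genes whose mean reached 1 FPKM. Predicted, Rik, small RNA and pseudogene names and rows of several symbols were left out unless they held a listed gene. The rule for naming took all members, up to 4 genes of each other list by size or as defining markers, and the 10 nearest patterns. Medians leave out genes listed at 0 in a compared group, while counts keep them.

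Read depth is unknown. In genes with 1 transcript, a lowest step of FPKM times length was set for each group. It was the median of the values around a low quantile of those above 0, and smaller values exist. Values around it numbered 127 at 700 days and between 285 and 552 in the other groups. At 50 and 700 days the step was 0.0146 and 0.00728. The step was 0.0506 and 0.0523 in control and cKO skin at 100 days, and 0.0297 and 0.0545 at 300 days. It was read as about 1 read of the deepest library, which is an estimate, and no interval was made from it. Coordinates, overlaps and shared 75-base windows came from GENCODE M21 (GRCm38) and start windows from RefSeq (GRCm38.p6). The counting was tested on simulated data. Python 3.11.15, pandas 2.3.3, numpy 2.4.6 and matplotlib 3.10.9 were used.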

Additional observations from a re-analysis of the deposited data

How the results depend on the processing

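Alternatives were pseudocounts of 0.1 and 0.5, no filter on low values or a mean of at least 5 FPKM, scaling to a common median and to equal totals, and, chosen after seeing the data, leaving out genes listed at 0 and scaling to equal totals outside muscle genes. The counts of members higher or lower stayed within 1.5 times under these, except in cKO against control skin at 300 days. There 5 were higher with a pseudocount of 0.1 against 3, and none (0) was lower with a mean of at least 5 FPKM against 1, since Tnnt1 was then not among the genes tested. No member past the size counted changed direction. Of 1812 alternative values of single members 1787 stayed on their side of the size counted. At 700 against 50 days the members' median ran from -3.41 to -4.79 with a pseudocount of 0.1. Scaling moved the median of all genes by more than 0.1 to -0.15 in control skin, 300 against 100 days, and from 0.02 to -0.09 in cKO against control skin at 100 days, both with equal totals, and to 0.13 at 700 against 50 days with equal totals outside muscle genes. Those medians of the members were -0.28, -0.68 and -3.33. With equal totals 190 of all genes were higher and 678 lower in cKO against control skin at 100 days, against 265 and 525, and 306 higher and 190 lower in control skin, 300 against 100 days, against 414 and 125. With equal totals outside muscle genes 226 were higher and 216 lower in cKO skin, 300 against 100 days, against 294 and 180. The counts over all genes behind the background shares were larger with a pseudocount of 0.1 (139 higher and 775 lower at 700 against 50 days, against 74 and 398) and smaller with a mean of at least 5 FPKM (146 higher and 276 lower in cKO against control skin at 300 days, against 225 and 626). No paired analysis was possible because the table holds 1 value per group, and for the same reason no replicate could be left out. Low slow fibre genes rest on few reads by the estimate above: Tnnc1 stood at 7.501 steps in control and 38.71 in cKO skin at 100 days.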

Other observations

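The M-band gene Myom1 was listed at 0 in all 6 groups, although its relative Myom2 ran from 0.715 to 98.6 FPKM. Exons of Myom1 overlap those of Myl12a, a light chain of non-muscle myosin, on the opposite strand, and Myl12a was listed at 0 in all 6 groups too. In the wider muscle list Sspn, which encodes sarcospan of the membrane complex of dystrophin, was also listed at 0 in all 6 groups.

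The genes of this paragraph were chosen after their values were seen. Members of the dystrophin complex differed in how far they moved with the fibre genes at 700 against 50 days. Sgca, a sarcoglycan of striated muscle, was 0.634 against 4.22 FPKM. Dmd and Dag1, which other cells make as well, were 21.1 against 30.5 and 30.5 against 31.5 FPKM. Tmod4, a cap of the thin filament, was 43.2 against 51.7 FPKM.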
